A study of Sus scrofa with 6 samples.

Results

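Cells dispose of reactive oxygen in steps. Superoxide dismutases turn superoxide into hydrogen peroxide, which catalase, the glutathione peroxidases and the peroxiredoxins then reduce. Thioredoxin and NAD(P)H quinone dehydrogenase pass electrons to oxidized proteins and quinones, and several of these genes are known targets of the transcription factor NRF2 (gene NFE2L2). In the lung they act on oxidants from inhaled air and from inflammatory cells. Of 10 listed antioxidant defence genes, 6 could be matched to a probe set by gene symbol and are described here, out of 11798 genes measured. These were the mitochondrial manganese superoxide dismutase SOD2, catalase (CAT), peroxiredoxin 6 (PRDX6), the secreted glutathione peroxidase GPX3, thioredoxin (TXN) and NQO1. The other 4 (SOD1, SOD3, GPX1 and HMOX1) were not analysed here.

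The lungs came from adult male German landrace pigs, 3 of which had received mesenchymal stromal cells from porcine bone marrow (MSC-treated) and 3 Ringer solution as vehicle (control). All of them had undergone extended partial hepatectomy (ePHx) the day before, so no lung of an unoperated animal enters these comparisons. The cells had been differentiated towards hepatocytes before they were infused into a central vein. Each lung gave RNA for 1 porcine gene array from Affymetrix, and its values are log2 signals, on which a difference of 1 is a doubling.

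Signals of 7 measured markers of lung epithelium were high in both groups, for example surfactant protein C (SFTPC) with a mean of 12.46 in MSC-treated and 12.44 in control lungs. None of the 7 passed the thresholds given below, but 5 had a negative log2 fold change, with a median of -0.22, and within the marked arrays all 7 did. The mean of the background probe sets lay between 3.88 and 4.24 on the 6 arrays, and all 6 antioxidant genes were above it on each array. In the deposited workbook, 3 arrays have b-T in their names (called the mark here), and no source used here says what it stands for. The marked arrays were MSC-treated replicate 2 and control replicates 1 and 3. Methods mention a processing batch of the lung samples without naming its arrays, so differences are also given with the mark as a covariate and within the marked and the unmarked arrays.

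SOD2, the enzyme that removes superoxide in the mitochondrial matrix and a known target of NF-kappaB, was the member that fell in MSC-treated lungs. Its probe set of 21 probes represents a transcript on chromosome 1, from 9475309 to 9487684 on the plus strand of Sscrofa10.2. The SOD2 signal was 10.07, 9.80 and 9.51 in MSC-treated replicates 1 to 3, against 10.50, 10.35 and 10.09 in control replicates 1 to 3. All MSC-treated arrays were thus below all control arrays, although MSC-treated replicate 1 and control replicate 3 were close together. The means were 9.79 ± 0.28 in MSC-treated and 10.31 ± 0.21 in control lungs (SD over 3 arrays each). SOD2 thus had a log2 fold change of -0.52 (SE 0.20, 95% interval -0.98 to -0.05), and its signal fell by 30.2%. It passed the study's thresholds in limma, which were an unadjusted p under 0.05 (here 0.0338) and a log2 fold change beyond 0.5 in either direction. Of all genes, 1.2% fell at these thresholds and 0.653% rose. In 3.81% of all genes the MSC-treated arrays lay below the control arrays without overlap, so SOD2 shares its pattern with many genes.

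Neither SOD2 nor any other gene passed an adjusted p under 0.05 in limma (0% of 11798 genes, with 322 at an unadjusted p under 0.05), and none did by the t-test of the methods after adjustment (342 unadjusted). The adjusted p of SOD2 in limma was 1.00. SOD2 itself had an unadjusted p of 0.062 in the t-test of the methods, and so missed 0.05 there. The exact permutation test of SOD2 gave p = 0.1, two-sided, the smallest that 3 arrays against 3 allow. With the mark as a covariate SOD2 had nearly the same value, -0.52 (SE 0.22), and was again past the thresholds, as were 1.24% of all genes in that direction. The difference was -0.49 within the marked and -0.56 within the unmarked arrays. The call rested on few arrays. SOD2 missed the thresholds without control replicate 1 (-0.42), control replicate 2 (-0.50), MSC-treated replicate 2 (-0.52) or MSC-treated replicate 3 (-0.38). At -0.50 after median centring it was just under the fold threshold. After a further quantile normalization it missed both thresholds, at -0.45 (limma, unadjusted p = 0.0571).

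**Figure D1:**
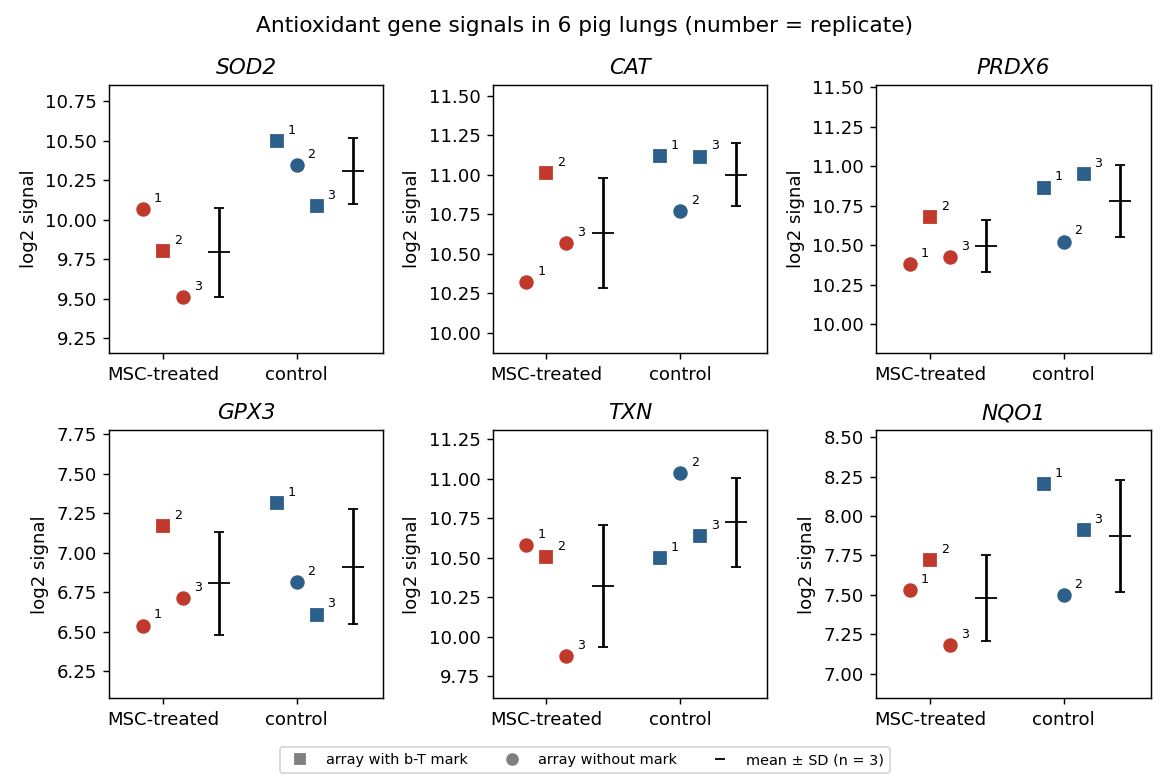
Log2 signal (vertical axes, each spanning the same range) of the 6 antioxidant genes in MSC-treated and control lungs, with 1 point for each array, its replicate number, squares for marked and circles for unmarked arrays, and the mean ± SD of 3 arrays in black. For SOD2 the MSC-treated points (9.51 to 10.07) lie below the control points (10.09 to 10.50), while for CAT, PRDX6 and NQO1 all squares lie above all circles.

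Catalase and peroxiredoxin 6 remove the peroxide that dismutases produce. CAT, whose enzyme breaks down hydrogen peroxide in peroxisomes and is abundant in red cells, had 10.32, 11.01 and 10.57 in MSC-treated replicates 1 to 3, against 11.12, 10.77 and 11.12 in control replicates 1 to 3. MSC-treated replicate 2 lay among the control arrays, and the groups overlapped. For CAT the log2 fold change was -0.37 (SE 0.22, 95% interval -0.87 to 0.14), which did not pass (limma, adjusted p = 1.00, exact permutation test, p = 0.2). PRDX6, which reduces peroxidized phospholipids and is known from alveolar type 2 cells for its part in surfactant turnover, had 10.38, 10.68 and 10.42 in MSC-treated lungs, against 10.87, 10.52 and 10.95 in control lungs. Again only MSC-treated replicate 2 reached into the control range. This gave PRDX6 a log2 fold change of -0.29 (SE 0.18, 95% interval -0.71 to 0.13, limma, adjusted p = 1.00, exact permutation test, p = 0.2). Its transcript lies on chromosome 9, from 127491779 to 127505079 in Sscrofa10.2, and CAT on chromosome 2.

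GPX3, the selenium-containing glutathione peroxidase of plasma, showed the smallest difference of the 6. It had 6.54, 7.17 and 6.72 in MSC-treated lungs, against 7.32, 6.81 and 6.61 in control lungs, with the highest and the third highest array in the control group. GPX3 had a log2 fold change of -0.10 (SE 0.25, 95% interval -0.68 to 0.47, limma, adjusted p = 1.00, exact permutation test, p = 0.6). Its sign was not stable, with 0.011 when the mark was a covariate, 0.10 without control replicate 1 and 0.03 without MSC-treated replicate 1.

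Thioredoxin and NQO1 act as reductases rather than on peroxide itself. TXN, a small protein that reduces disulfide bonds and supplies electrons to peroxiredoxins, had 10.58, 10.51 and 9.88 in MSC-treated lungs, against 10.50, 11.04 and 10.64 in control lungs. The low MSC-treated replicate 3 and the high control replicate 2 carried most of the difference, and the other 4 arrays lay between 10.50 and 10.64. The log2 fold change of TXN was -0.40 (SE 0.24, 95% interval -0.97 to 0.16, limma, adjusted p = 1.00, exact permutation test, p = 0.3), and -0.18 without MSC-treated replicate 3.

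NQO1, a classic NRF2 target that reduces quinones, had 7.53, 7.72 and 7.18 in MSC-treated lungs, against 8.20, 7.50 and 7.91 in control lungs. Control replicate 2 lay below 2 of the MSC-treated arrays, so the groups overlapped. For NQO1 the log2 fold change was -0.39 (SE 0.23, 95% interval -0.93 to 0.15, limma, adjusted p = 1.00, exact permutation test, p = 0.3). NQO1 passed the thresholds once control replicate 2 was left out (-0.58), as CAT did without MSC-treated replicate 2 (-0.55). In these settings 471 and 608 of all genes passed, against 219 with all arrays. Control replicate 2 was the only unmarked control array and MSC-treated replicate 2 the only marked MSC-treated array. Each omission thus mixed the mark more closely with the treatment. The NQO1 transcript lies on chromosome 6, from 16238853 to 16248810 on the plus strand of Sscrofa10.2.

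Across the genes, 1 of 6 fell at the thresholds, none rose and 5 did not pass. All 6 had a negative log2 fold change, as had 50.5% of all genes, with a median of -0.38 over the 6 and of 0.00 over all genes. Each of the 6 had its lowest signal in an MSC-treated array and its highest in a control array. The share of all genes with this pattern was not counted, so it cannot be said whether the pattern sets these genes apart. These counts describe genes that were measured on the same 6 arrays and do not count as independent. The median was -0.23 with the mark as a covariate, and -0.17 within the marked arrays (5 of 6 negative) and -0.25 within the unmarked arrays (6 of 6 negative).

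**Figure D2:**
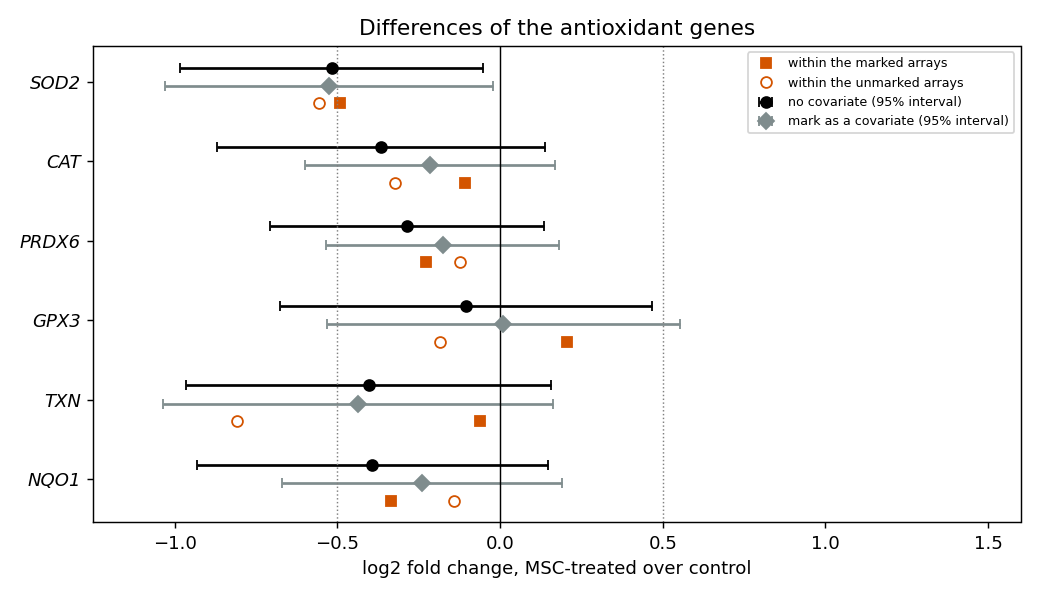
Log2 fold change of MSC-treated over control lungs (horizontal axis) for the 6 antioxidant genes, fitted without a covariate (black) and with the mark as a covariate (grey), each with its 95% interval, and the difference within the marked (squares) and the unmarked arrays (open circles). Only the intervals of SOD2 lie below 0 as a whole, and the 2 within-mark values of TXN (-0.06 and -0.81) are far apart.

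The mark separated some of these genes more clearly than the treatment did. For CAT, PRDX6 and NQO1 the 3 marked arrays lay above the 3 unmarked arrays without overlap, a pattern seen in 12.2% of all genes. In the fit with both terms the marked arrays were higher by 0.46 (SE 0.17) for CAT, by 0.46 (SE 0.18) for NQO1 and by 0.33 (SE 0.15) for PRDX6. The adjusted p values in limma were 0.224, 0.266 and 0.332, and 114 of all genes passed 0.05 for the mark. SOD2 differed by -0.02 (SE 0.22) and TXN by -0.10 (SE 0.26) between marked and unmarked arrays. Since 2 of the marked arrays were control and 1 MSC-treated, the mark and the treatment are partly mixed. The treatment differences with the mark as a covariate were -0.21 for CAT, -0.24 for NQO1 and -0.18 for PRDX6, each smaller than without it, and -0.44 for TXN.

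NFE2L2, the gene of NRF2 itself, is named here after its values were seen. It had 10.04, 10.88 and 10.12 in MSC-treated lungs, against 10.91, 10.10 and 10.98 in control lungs. These values followed the mark, with 10.88 to 10.98 on the marked and 10.04 to 10.12 on the unmarked arrays. The log2 fold change of NFE2L2 between treatments was -0.32 (SE 0.31) without and -0.05 (SE 0.15) with the mark as a covariate.

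The further antioxidant lists held 50 measured genes of 94 listed, of which 1 fell and 49 did not pass. Their median log2 fold change was -0.12, with 35 negative values, and -0.06 with the mark as a covariate, when 3 fell. Among 7 glutathione S-transferases, which couple glutathione to reactive compounds, GSTM3 fell and the median was -0.51. Marked arrays alone gave a median of -0.05 and unmarked arrays alone -0.56, and the fit with the covariate gave -0.33. GSTM3 had 4.96, 5.77 and 5.37 in MSC-treated lungs, against 6.07, 7.01 and 5.76 in control lungs, with MSC-treated replicate 2 just above the lowest control array. Its log2 fold change was -0.91 (SE 0.35, limma, adjusted p = 1.00), and -0.14 within the marked against -1.84 within the unmarked arrays. It missed the thresholds with array weights (-0.62) and without control replicate 2 (-0.54), MSC-treated replicate 1 (-0.71) or MSC-treated replicate 3 (-0.91). By the t-test of the methods GSTM3 had an unadjusted p of 0.109.

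Of 9 other glutathione peroxidases and peroxiredoxins none passed (median -0.15). Their median was -0.37 with the mark as a covariate, and turned to 0.11 within the marked arrays against -0.81 within the unmarked arrays. GPX2, the glutathione peroxidase of epithelia, had the largest difference among them, -1.06 (SE 0.51). Its signals were 6.13, 7.89 and 6.20 in MSC-treated lungs, against 7.80, 7.18 and 8.41 in control lungs. With the mark as a covariate GPX2 was at -0.61 (SE 0.25) and past the thresholds, with -0.21 within the marked and -1.02 within the unmarked arrays. So was PRDX4, the peroxiredoxin of the endoplasmic reticulum, which is named here after its values were seen. It was at -0.64 (SE 0.24) with the covariate and -0.33 (SE 0.38) without it. The mitochondrial peroxiredoxin PRDX3, which acts on the peroxide made by SOD2, was at -0.61 (SE 0.30), with 0.04 within the marked and -0.81 within the unmarked arrays.

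No gene passed in the other antioxidant lists. The 8 genes of the thioredoxin and glutaredoxin system had a median of 0.02, with mitochondrial thioredoxin TXN2 at 0.35 (SE 0.20) and the methionine sulfoxide reductase MSRB3 at 0.11 (SE 0.18). The 8 genes of glutathione synthesis, glutathione reduction and NADPH supply had a median of -0.14 (0.01 within the marked arrays), with the pentose phosphate enzyme TALDO1 at -0.22 (SE 0.17) and glutathione synthetase (GSS) at -0.15 (SE 0.17). The medians were 0.00 for 10 genes of the NRF2 pathway and -0.07 for 8 genes of haem breakdown and iron. Here the aldo-keto reductase AKR1C1 was at 0.73 (SE 0.35), epoxide hydrolase EPHX1 at -0.35 (SE 0.25), ceruloplasmin (CP) at -0.35 (SE 0.33) and the transferrin receptor TFRC at -0.29 (SE 0.32).

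**Figure D3:**
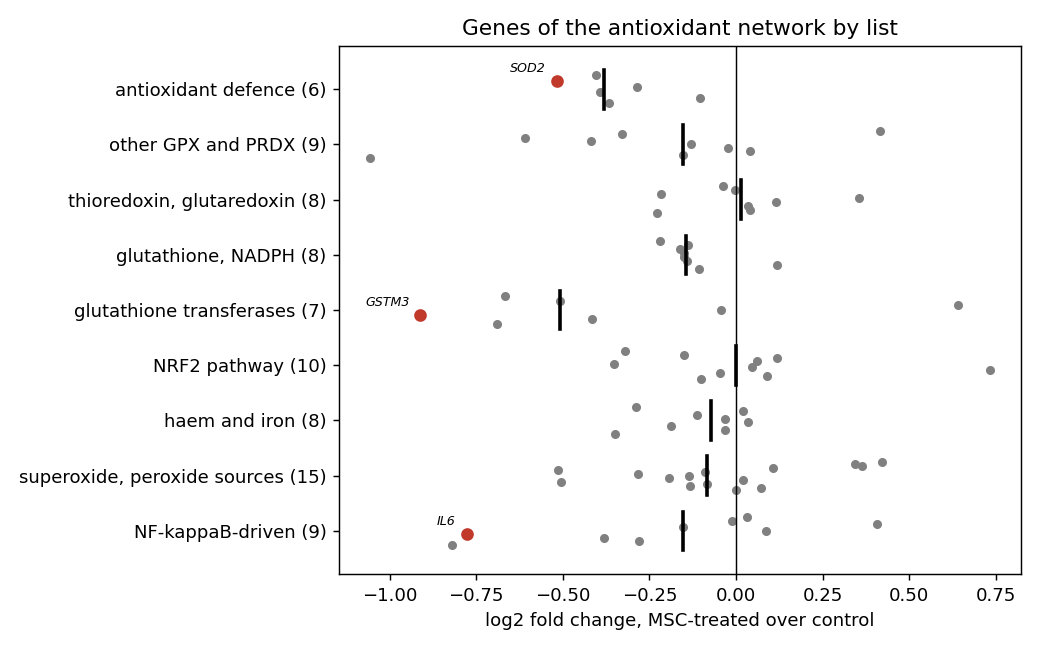
Log2 fold change of MSC-treated over control lungs (horizontal axis) for each measured gene of the antioxidant defence genes and of 8 further lists, with the number of genes in brackets, the median of each list as a black bar and genes past the study's thresholds in red. SOD2 (-0.52), GSTM3 (-0.91) and IL6 (-0.78) are the genes past the thresholds, all on the negative side.

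Enzymes that make superoxide or peroxide, the substrates of the genes above, showed no change at the thresholds in 15 measured genes (median -0.08, and 0.10 with the mark as a covariate). NOX4, an NADPH oxidase that makes hydrogen peroxide, had 7.95, 7.92 and 7.91 in MSC-treated lungs, against 7.48, 7.53 and 7.68 in control lungs. The groups did not overlap, and its log2 fold change of 0.36 (SE 0.15) was below the fold threshold. In 424 of 11798 genes all MSC-treated arrays lay above all control arrays. DUOXA2, the maturation factor of a dual oxidase, was at -0.50 (SE 0.22, limma, unadjusted p = 0.0515).

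SOD2 is induced through NF-kappaB, and 9 other genes driven by this factor or encoding its subunits had a median of -0.15. The sign of this median turned with the mark as a covariate (0.15) and within the unmarked arrays (0.09), and it was -0.08 within the marked arrays. IL6 fell, with 4.16, 4.86 and 4.75 in MSC-treated lungs, against 5.72, 5.32 and 5.07 in control lungs, and a log2 fold change of -0.78 (SE 0.25, limma, adjusted p = 1.00), which missed the thresholds without control replicate 1 (-0.60). By the t-test of the methods IL6 had an unadjusted p of 0.0532. The setting limited to genes with a mean log2 signal of at least 5 left IL6 out. The IL6 signal of MSC-treated replicate 1 lay within the range of the background means given above. The other 8 did not pass. REL, a subunit of the factor that is named here after its values were seen, was at 0.41 (SE 0.17), and with the mark as a covariate at 0.51 (SE 0.15) and past the thresholds.

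The measured red cell and neutrophil markers had negative log2 fold changes, as had the antioxidant genes, but they did not follow each other on every array. In a tissue sample, fewer cells of a type and less RNA per cell cannot be told apart. Of 10 listed red cell markers 3 were measured, with log2 fold changes of -1.26 for HBB, -0.34 for SLC4A1 and -0.04 for GYPC. Their mean log2 signal lay between 6.35 and 6.67 in MSC-treated and between 6.81 and 7.57 in control lungs, with HBB as the largest part of that difference. Among them HBB had 6.48, 7.85 and 7.96 in MSC-treated lungs, against 9.48, 7.91 and 8.69 in control lungs. Of 13 neutrophil markers 7 were measured, all with negative values. Their mean log2 signal lay between 6.64 and 7.104 in MSC-treated and between 7.098 and 8.99 in control lungs, so the groups overlapped. Control replicates 2 (7.37) and 3 (7.098) lay much nearer to the MSC-treated arrays than control replicate 1 (8.99) did. HBB, TCN1 and S100A12 fell at the thresholds, and the other 7 markers of these lists did not pass. S100A12, a calcium-binding protein of neutrophils, had 10.84, 10.22 and 10.54 in MSC-treated lungs, against 12.34, 11.19 and 11.03 in control lungs, without overlap. Its log2 fold change was -0.99 (SE 0.35), and -0.58 and still past the thresholds without control replicate 1. The granule protein TCN1 was at -2.02 (SE 0.63), and at -1.26 and past them without that array, with a mean at background level in MSC-treated lungs (3.89, against 5.91 in control lungs). HBB, at -1.26 (SE 0.49), missed them without control replicate 1 (-0.87), control replicate 3 (-1.26) or MSC-treated replicate 1 (-0.79). S100A12 missed them without MSC-treated replicate 2 (-0.83) or 3 (-0.99), and TCN1 without MSC-treated replicate 3 (-1.81). By the t-test of the methods the unadjusted p was 0.127 for HBB, 0.0774 for TCN1 and 0.0925 for S100A12.

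On control replicate 1 the median deviation from the gene means was 0.37 for the antioxidant genes, 0.90 for red cell markers and 1.4 for neutrophil markers, the highest of the 6 arrays in each case. SOD2, GPX3 and NQO1 had their highest signal on that array, and CAT had the same signal there as on control replicate 3. Without it the median log2 fold change of the 6 antioxidant genes was -0.28, with SOD2 at -0.42, CAT at -0.31, TXN at -0.52 and NQO1 at -0.23. On MSC-treated replicate 3, where the antioxidant genes were lowest (-0.37), red cell markers were at -0.15 and neutrophil markers at -0.49. MSC-treated replicate 2 went the other way by this measure. Red cell (-0.21) and neutrophil markers (-0.81) had their lowest median deviation of the 6 arrays there, and the antioxidant genes were at 0.05. The order depended on the measure. By mean log2 signal, red cell markers were lowest on MSC-treated replicate 1 (6.35), as was HBB (6.48), and neutrophil markers on MSC-treated replicate 3 (6.64). On control replicate 3 neutrophil markers were at -0.26 and the antioxidant genes at 0.18, their second highest value. The median of the macrophage markers followed the mark. It was 0.32 and 0.37 on control replicates 1 and 3 and 0.70 on MSC-treated replicate 2, all marked. On the unmarked arrays it was -0.80 (control replicate 2), -0.16 and -0.13 (MSC-treated replicates 1 and 3). Of 9 macrophage markers, 5 were higher on all marked than on all unmarked arrays, a pattern of 12.2% of all genes. At an adjusted p under 0.05 for the mark in limma, 3 of the 9 passed. The part of these cells in the differences of the antioxidant genes was not tested. Of 8 measured hepatocyte markers none passed, and albumin (ALB) had 4.24, 3.70 and 5.40 in MSC-treated lungs, against 7.65, 4.50 and 4.54 in control lungs, so that it too was highest on control replicate 1.

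**Figure D4:**
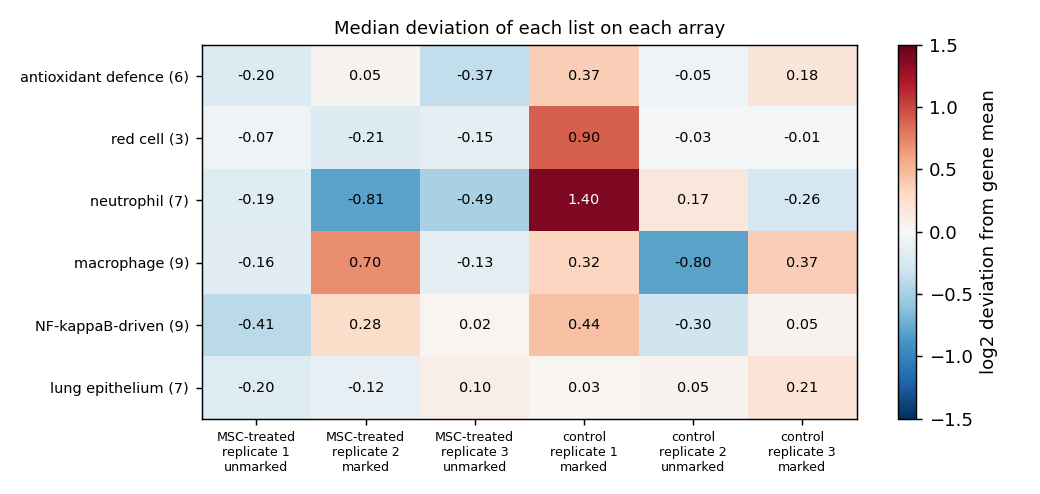
Median log2 deviation from the mean of each gene over the 6 arrays, for the antioxidant defence genes and 5 other lists (rows, number of genes in brackets) on each array (columns), with red for higher and blue for lower values. Control replicate 1 is high for antioxidant (0.37), red cell (0.90) and neutrophil genes (1.4), and MSC-treated replicate 3 is lowest for antioxidant genes (-0.37), while neutrophil genes are lowest on MSC-treated replicate 2 (-0.81).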

How the data were processed

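Lung RNA of 3 MSC-treated and 3 control pigs was analysed on Affymetrix porcine gene arrays. RMA was used by the authors to make the deposited log2 signals (background correction, quantile normalization, probe summarization), and the submitters' processing notes name Affymetrix Expression Console 1.4. Other deposited annotation per probe set (number of probes, a cross-hybridization score and category) was read from the authors' workbook. Its 6 signal columns match no sample by name and were not used as measurements, but their values were identical to those of the samples, which showed the arrays that carry the mark. The ComBat correction named in Methods is not part of the values.

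Of 19124 main probe sets, 12910 had 1 gene symbol from the workbook or the RefSeq and Ensembl name tables given (RefSeq assembly Sscrofa11.1, used for names alone), 214 had several and 6000 none. Each gene took the probe set with the highest mean, without a filter on signal, and each antioxidant gene had a single one. Groups were compared with limma 3.58.1 in R 4.3.3 (lmFit, eBayes, no covariate), with Benjamini-Hochberg adjustment over 11798 genes, and single genes by exact permutation tests, two-sided. The fit was tested on simulated data. Python 3.11.15 with matplotlib 3.10.9 drew the figures. Genes named in the text are the antioxidant genes and, in each other list, those past the thresholds or, where none passed, up to 2 with the smallest p, except where stated and except for cell type markers. The genes and lists were chosen with earlier results of these data known. The limma p-values compare the group difference with the spread of arrays within the groups, which limma shares in part over all genes. The number of arrays, 6, limits the precision.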

Additional observations from a re-analysis of the deposited data

How the results depend on the processing

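The negative sign of SOD2, CAT, PRDX6, TXN and NQO1 was the same in each setting tried, while GPX3 turned to 0.011 in both fits that account for the mark, to 0.21 within the marked arrays, to 0.10 without control replicate 1 and to 0.03 without MSC-treated replicate 1. Without single arrays GPX3 ran from -0.29 to 0.10. The number of antioxidant genes past the thresholds was 0 after median centring, after a further quantile normalization and by the t-test of the methods with a fold above 2, and 0 to 1 when single arrays were left out. Without control replicate 2 or MSC-treated replicate 2 the gene past them was NQO1 or CAT in place of SOD2. Both omissions mixed the mark more closely with the treatment. In the t-test of the methods none of the antioxidant genes had an unadjusted p under 0.05, whatever the fold. Their median log2 fold change was -0.17 within the marked arrays and ran from -0.51 to -0.25 without single arrays. Of all genes 219 passed, against 343 with the mark as a covariate, 426 with the mark removed first, a setting chosen after seeing the data whose p-values are too small, 2 by the t-test and 183 to 608 without single arrays. With the replicate number as a replicate block 166 genes passed, SOD2 among them. The correlations of same-numbered arrays were -0.406, -0.487 and 0.0563. Same-numbered arrays always differed in the mark, which was not taken out first. These correlations thus cannot show whether the numbers pair the animals. ComBat was not run, and the second deposited table held the same values. The cause of these changes was not tested.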
